A study of Homo sapiens with 3 samples.

Results

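Genes of the granules and lysosomes of monocytes and granulocytes were followed through HyperTRIBE editing lists of THP-1 cells. The 7 genes are LYZ, SRGN, MPO, AZU1, PRTN3, ELANE and CTSG, and every listed A-to-G position that carries any of these gene names was taken, whatever its value. Of the 7 genes, 6 had listed positions, 154 positions in all, out of 16820 positions in 4143 genes over the 3 lists. MPO had 0 listed positions in each of the 3 lists, so the lists hold neither reads nor an editing level for it.

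THP-1 is a human monocytic leukemia cell line. HyperTRIBE marks RNAs that a protein meets by fusing the protein to a hyperactive catalytic domain of ADAR, an enzyme that turns adenosine into inosine, which is read as G. The 3 groups, of 1 library each, carried a pGK-GFP retrovirus with DDX41 fused to the ADAR catalytic domain (DDX41-ADARcd), a pGK-GFP retrovirus with that domain alone (ADARcd alone) and the same retrovirus with no transgene (empty vector). All cells were grown in RPMI with 10% FCS, had been transduced with supernatants made in 293T cells, carried no deletion that the labels name, and were harvested for RNA 7 days after transduction. Since each group is 1 library, there is no replicate spread, and every test below compares the reads of 2 libraries, not the conditions.

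Granules of myeloid cells are storage organelles related to lysosomes that hold antimicrobial proteins and proteases. The chains of sugars on serglycin (SRGN) hold these basic proteins in the granule. Lysozyme (LYZ) cuts bacterial cell walls, myeloperoxidase (MPO) makes hypochlorous acid, and proteinase 3 (PRTN3), neutrophil elastase (ELANE) and cathepsin G (CTSG) are serine proteases. Azurocidin (AZU1) is a relative of those proteases without protease activity that kills bacteria. DDX41 is a DEAD-box RNA helicase whose gene is mutated in some myeloid leukemias.

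The sequences that carry the editing are those around the 6 positions of these genes with 5 or more edited reads, all of them in the library of ADARcd alone, and around the SRGN and LYZ positions with most edited reads in DDX41-ADARcd. Each line gives the transcript letters 5′ to 3′ from GENCODE 29 (GRCh38), with 10 bases on either side and the edited A in capitals.
AZU1, chr19:831905, plus strand: catggagcccAgccccgccct
LYZ, chr12:69350244, plus strand: ccccaggagcAgttaatgcct
AZU1, chr19:830883, plus strand: cccgaggaccAgtgtcgcccc
CTSG, chr14:24574339, minus strand: ctgagagtgcAgagggatagg
CTSG, chr14:24576188, minus strand: cctttctcctAcccactgggg
ELANE, chr19:855696, plus strand: tgggatcgccAgcgtcctgca
SRGN, chr10:69104771, plus strand: gtattttcaaAtgttactata
LYZ, chr12:69350152, plus strand: cacacgagctAcaaactacaa
In 5 of the first 6 the edited A stands between C and G, and the CTSG position at chr14:24576188 stands between T and C.

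Against the empty vector, 56 positions of the 6 genes were listed for DDX41-ADARcd and 91 for ADARcd alone, out of 3516 and 6413 listed positions in all. Against ADARcd alone, 63 of the 10407 positions listed for DDX41-ADARcd were in these genes. Every listed position had at least 1 edited read in the library named first and 0 edited reads among at least 10 reads in its control, which fixes the direction of every listed difference. The editing levels were low. In the lists against the empty vector the median level of the positions was 0.219% for DDX41-ADARcd (95% interval 0.167 to 0.257, 56 positions) and 0.151% for ADARcd alone (0.106 to 0.170, 91 positions). These 2 intervals describe the spread over positions, which share 1 library and 6 genes and are not independent, so they do not compare the libraries. The order of these 2 medians turns with 2 or more edited reads required, when they are 0.281% (9 positions) for DDX41-ADARcd and 0.448% (22 positions) for ADARcd alone. Over all listed positions the medians were 0.515% and 0.434%, at a lower depth: the median depth in the edited library was 511 reads in these genes against 220 over all positions for DDX41-ADARcd, and 805 against 286 for ADARcd alone. A level is at least 1 read over the depth, so the smallest level that can be listed is lower at deeper positions.

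Most of the listed positions rested on 1 edited read. That was so for 83.9% of the positions of these genes for DDX41-ADARcd and for 75.8% for ADARcd alone, against 81.5% and 74.8% over all listed positions. None of the 56 fusion positions had 5 or more edited reads, against 30 of 3516 (0.853%) over all. For ADARcd alone 6 of 91 did (6.59%), against 260 of 6413 (4.05%) over all. Reads with a base that is neither A nor the edited one give a rough scale for these levels. Every listed position has at least 1 edited read, while other-base reads can be absent. The excess of edited reads over other-base reads is therefore partly set by the listing. That required read also weighs more at shallow positions, so depth enters the comparisons with all listed positions. Per 10000 reads at the positions of these genes, DDX41-ADARcd had 17.7 edited and 10.2 other-base reads, and ADARcd alone had 17.5 edited and 9.47 other-base reads. Over all listed positions the edited reads stood further above the other bases, at 26.0 and 12.2 per 10000 for DDX41-ADARcd and 37.7 and 9.84 for ADARcd alone. At 32.1% of the positions for DDX41-ADARcd and 39.6% for ADARcd alone the other-base reads were as many as the edited reads or more, against 22.2% and 22.1% over all.

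No position of these genes passed the test in any comparison. Edited and unedited reads at each position were compared with a two-sided Fisher's exact test, adjusted by Benjamini-Hochberg over all tested positions, with a threshold of 0.05. For DDX41-ADARcd against the empty vector 0 of 56 positions passed, where the share over all 3512 tested positions was 0%; at an unadjusted p under 0.05 it was 0 of 56, against 3 positions or 0.0854% over all. For ADARcd alone against the empty vector 0 of 91 passed, against 0.203% over all (13 of 6412), and at an unadjusted p under 0.05 it was 0 of 91, against 0.546% over all. For DDX41-ADARcd against ADARcd alone 0 of 60 tested positions passed, against 0.282% over all (26 of 9227, all 26 lower in DDX41-ADARcd), and 1 of 60 had an unadjusted p under 0.05, against 0.856% over all; that position was lower in DDX41-ADARcd, as were 0.423% over all. At these numbers of positions, counts of 0 do not set these genes apart from the background shares.

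Depth in the empty vector set what could pass. At the median depths of each gene, an unadjusted p under 0.05 for DDX41-ADARcd against the empty vector needed a level of 1.51% in SRGN, 6.58% in PRTN3, 6.89% in CTSG, 7.08% in AZU1, 16.9% in LYZ and 23.5% in ELANE. For ADARcd alone against the empty vector it needed 1.5% in SRGN, 5.67% in PRTN3, 8.75% in AZU1, 8.92% in CTSG, 14.3% in LYZ and 21.2% in ELANE. No position of these genes reached its gene's value, so differences from the empty vector below these levels were not detectable at this depth. Intervals of single positions, and floors of 3 reads of the depth where 0 reads were edited, cover counting error only, since the reads carry no molecular identifiers.

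**Figure D1:**
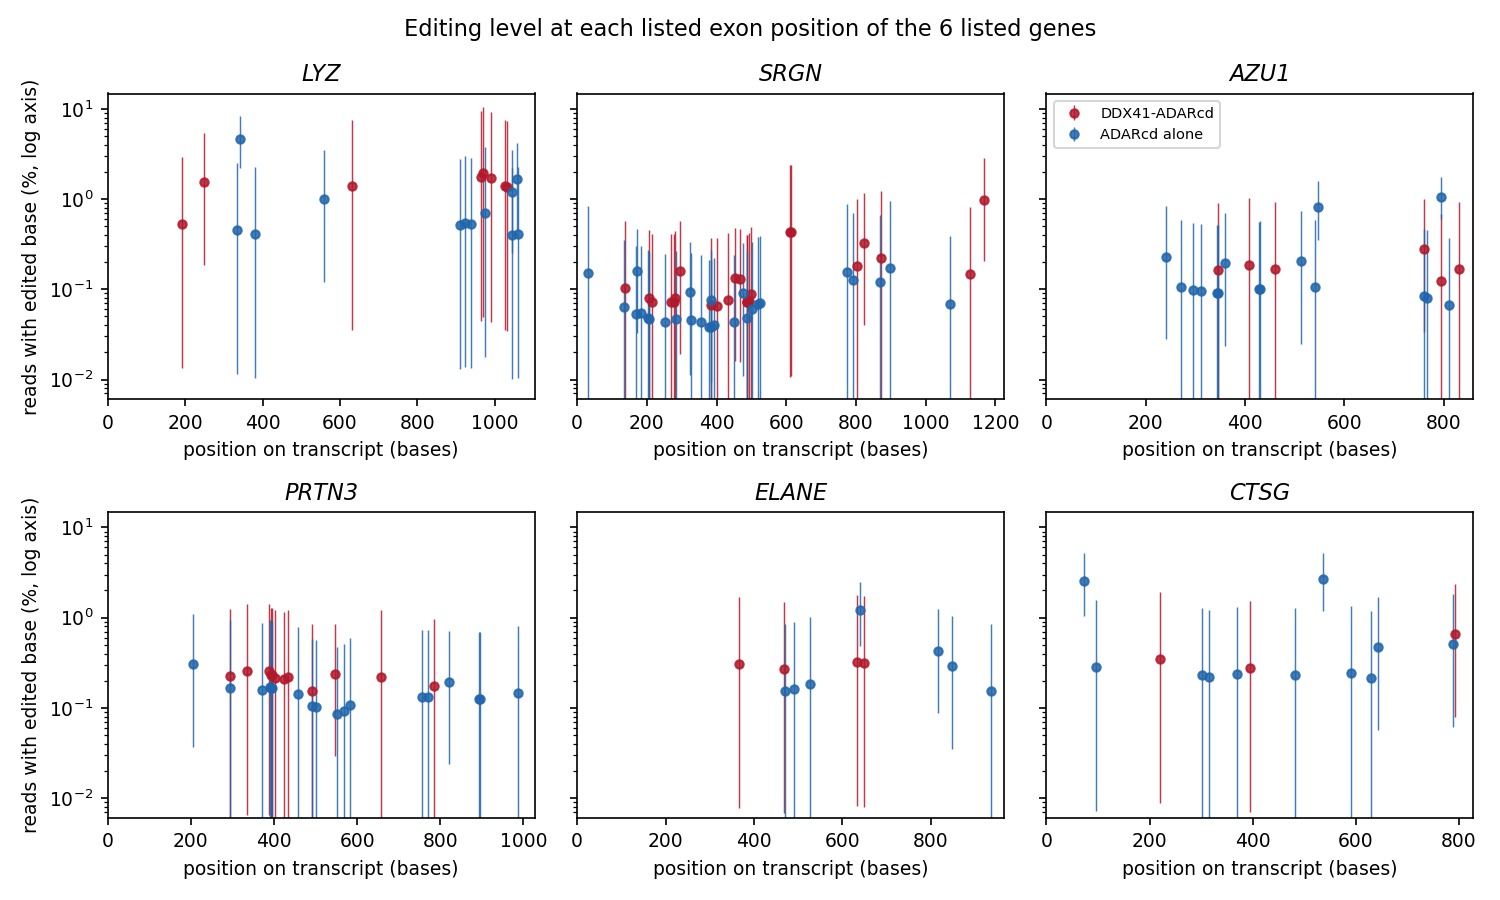
Editing level (percent of reads with the edited base, log axis) at each exon position listed against the empty vector, by position on the transcript, for DDX41-ADARcd (red) and ADARcd alone (blue); bars are exact 95% intervals, and lower ends below the axis are not drawn. The highest level is 4.63% in LYZ in ADARcd alone, and the fusion positions of LYZ lie at 0.526% to 1.96%.

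LYZ (chr12:69348341-69354234, plus strand) had the highest level of the 7 genes against the empty vector. At chr12:69350244, in the coding part of exon 2, 10 of 216 reads were edited in ADARcd alone, a level of 4.63% (95% interval 2.24 to 8.35), and 0 of 27 were in the empty vector, which allows up to 11.1%. This difference was not detectable at the depth of the empty vector (Fisher's exact p = 0.608, adjusted p = 1). The position is not among those listed for DDX41-ADARcd. The nearest fusion position, chr12:69350152, lies 92 bases away in the same exon and had 2 of 130 reads edited in DDX41-ADARcd (1.54%, 0.187 to 5.45), against 0 of 249 in ADARcd alone and 0 of 30 in the empty vector (Fisher's exact p = 0.117 against ADARcd alone, adjusted p = 0.560).

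For ADARcd alone, LYZ positions with at least 2 edited reads also lay in the 3′ UTR, in exon 4. At chr12:69353750 it had 3 of 248 reads edited (1.21%, 0.250 to 3.49), against 0 of 32 in the empty vector. At chr12:69353264 it had 2 of 201 (0.995%, 0.121 to 3.55), against 0 of 31. The intervals of these 2 levels overlap each other and that of the coding position. Of the LYZ positions listed against the empty vector, 6 of 8 for DDX41-ADARcd and 9 of 12 for ADARcd alone were in the 3′ UTR, whereas positions of the 6 genes together were coding in 73.2% and 73.6%.

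A run of the LYZ 3′ UTR is not unique to the gene. Of its 21 exon positions, 14 had surrounding letters (21 bases) that also occur in transcripts of other genes, in 1 to 2099 of them with a median of 506. The 14 lay between chr12:69353553 and chr12:69353764, transcript bases 849 to 1060. The share of reads that came from other copies was not tested, so the LYZ values in this run are uncertain. All 122 exon positions of the other 5 genes had surrounding letters found in no other gene.

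SRGN (chr10:69088106-69104811, plus strand) had the most positions and the deepest reads of the 7 genes. It had 23 listed positions for DDX41-ADARcd and 27 for ADARcd alone against the empty vector, and 26 for DDX41-ADARcd against ADARcd alone. The highest exon level was at chr10:69104771, near the end of the 3′ UTR in exon 3, where 3 of 304 reads were edited in DDX41-ADARcd (0.987%, 0.204 to 2.86), against 0 of 443 in ADARcd alone and 0 of 36 in the empty vector (Fisher's exact p = 0.0670 against ADARcd alone, adjusted p = 0.560). Also in the 3′ UTR, chr10:69104425 came with 2 of 609 edited in DDX41-ADARcd (0.328%, 0.0398 to 1.18), against 0 of 986 in ADARcd alone and 0 of 112 in the empty vector. The intervals of the 2 levels overlap.

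The remaining SRGN positions with 2 or more edited reads were coding. In DDX41-ADARcd, exon 3 had 2 of 1257 reads edited at chr10:69103899, 2 of 1505 at chr10:69104055 and 2 of 1535 at chr10:69104071, with 0 of 2167, 0 of 2298 and 0 of 2328 in ADARcd alone. Their levels were 0.159%, 0.133% and 0.130%. In ADARcd alone, exon 2 had 3 of 1871 reads edited at chr10:69097137 (0.160%, 0.0331 to 0.468), against 0 of 251 in the empty vector. Exon 3 had 2 of 2142 at chr10:69103928, 2 of 2611 at chr10:69103987 and 2 of 2225 at chr10:69104080 in ADARcd alone, against 0 of 256, 0 of 314 and 0 of 375 in the empty vector. At 1257 to 2611 reads in the edited library, no level at these coding positions exceeded 0.160%, and the unadjusted Fisher's exact p values of the fusion positions against ADARcd alone ran between 0.135 and 0.158.

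AZU1, PRTN3 and ELANE lie beside each other on chromosome 19, all on the plus strand. In AZU1 (chr19:825097-832018), the position with most edited reads of any of these genes was chr19:831905, in the 3′ UTR in exon 5. There 1 of 808 reads was edited in DDX41-ADARcd (0.124%, 0.00313 to 0.688), 15 of 1409 in ADARcd alone (1.06%, 0.597 to 1.75) and 0 of 87 in the empty vector. It was the 1 position of these genes with an unadjusted p under 0.05 (Fisher's exact p = 0.00895 for DDX41-ADARcd against ADARcd alone, lower in DDX41-ADARcd), and it did not pass the adjustment over all positions (adjusted p = 0.560). Second in AZU1 was chr19:830883, coding, exon 4, with 8 of 984 reads edited in ADARcd alone (0.813%, 0.352 to 1.60) and 0 of 34 in the empty vector. That position is not among those listed for DDX41-ADARcd, whose nearest listed position, 87 bases away, had 593 reads.

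The weaker AZU1 positions had 2 edited reads. In ADARcd alone these were chr19:829575 with 2 of 869, chr19:829695 with 2 of 1028 and chr19:830849 with 2 of 972, all coding, against 0 of 42, 0 of 41 and 0 of 35 in the empty vector. In DDX41-ADARcd it was chr19:831871, coding, with 2 of 712 reads (0.281%, 0.0340 to 1.01), against 1 of 1195 in ADARcd alone (0.0837%, 0.00212 to 0.465) and 0 of 65 in the empty vector. The intervals of DDX41-ADARcd and ADARcd alone overlap at chr19:831871 (Fisher's exact p = 0.560, adjusted p = 0.628).

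PRTN3 (chr19:840960-848175) had no position above 2 edited reads. In DDX41-ADARcd, chr19:846275, coding, exon 4, had 2 of 839 reads edited (0.238%, 0.0289 to 0.858), against 0 of 1176 in ADARcd alone and 0 of 140 in the empty vector. In ADARcd alone, chr19:843556, coding, exon 2, had 2 of 660 (0.303%, 0.0367 to 1.09), against 0 of 48 in the empty vector, and chr19:847969 in the 3′ UTR had 2 of 1027 (0.195%, 0.0236 to 0.702), against 0 of 61. PRTN3 also held a stretch of 8 bases, chr19:844003 to chr19:844010, where reads of other bases outnumbered edited reads. Over the 3 positions listed there in each list against the empty vector, DDX41-ADARcd had 3 edited and 14 other-base reads of 1249, and ADARcd alone had 3 edited and 16 other-base reads of 1804. The other-base reads came to 112 and 88.7 per 10000, against 12.2 and 9.84 over all listed positions, so the edited reads of this stretch stood below its own other-base reads.

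ELANE (chr19:851014-856247) had only coding positions. In ADARcd alone, chr19:855696 in exon 5 had 7 of 576 reads edited (1.22%, 0.490 to 2.49), chr19:856035 in exon 6 had 3 of 701 (0.428%, 0.0883 to 1.25) and chr19:856068 in exon 6 had 2 of 686 (0.292%, 0.0353 to 1.05). The empty vector had 0 of 15, 0 of 26 and 0 of 32 reads edited there, which leaves the control share loosely bounded, at up to 11.5% for chr19:856035 and 9.38% for chr19:856068. In DDX41-ADARcd each of the 4 listed positions had 1 edited read, of 313 to 369 reads. Those at chr19:855690 and chr19:855706 flank chr19:855696 at 6 and 10 bases, with 313 and 322 fusion reads, while chr19:855696 itself is not among the positions listed for DDX41-ADARcd.

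CTSG (chr14:24573522-24576260, minus strand), the protease on another chromosome, also had only coding positions. In ADARcd alone, 8 of 296 reads were edited at chr14:24574339 in exon 4 (2.70%, 1.17 to 5.26) and 7 of 273 at chr14:24576188 in exon 1 (2.56%, 1.04 to 5.21), against 0 of 25 and 0 of 23 in the empty vector. These levels followed that of LYZ and did not differ beyond their intervals. Lower levels were found at chr14:24573654, with 2 of 391, and at chr14:24573799, with 2 of 428, both in exon 5. In DDX41-ADARcd the position with most edited reads was chr14:24573650, with 2 of 305 (0.656%, 0.0795 to 2.35), against 0 of 384 in ADARcd alone and 0 of 64 in the empty vector (Fisher's exact p = 0.196 against ADARcd alone, adjusted p = 0.560). Neither of the 2 highest positions is among those listed for DDX41-ADARcd, and the listed fusion position nearest to chr14:24574339, at 143 bases, had 361 reads.

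Few positions were edited in both transgene libraries. Against the empty vector, 7 positions were listed for both, which is 12.5% of the 56 for DDX41-ADARcd and 7.69% of the 91 for ADARcd alone, and 11.4% and 6.27% over all listed positions. Of the 7, 3 were in AZU1, 2 in PRTN3 and 2 in SRGN, and LYZ, ELANE and CTSG had none. Among the 400 tested positions of this kind 6.50% passed as lower in DDX41-ADARcd and 9.75% were lower at an unadjusted p under 0.05, against 0 and 1 of the 7 in these genes. Apart from chr19:831905, each of the 7 had 1 or 2 edited reads in either library, with unadjusted Fisher's exact p values of 0.560 to 1.

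The bases beside the edited A in these genes were compared with those at all listed positions, after the values had been seen. Of the 6 positions that reached 5 edited reads in ADARcd alone, 5 had C before and G after the A, against 22 of 246 (8.94%) in the other genes, and over all such positions 79.8% had U or A before it. The 5 were in LYZ, AZU1, CTSG and ELANE, and an A between C and G makes up 7.61% of the A in the LYZ transcript, 18.7% in AZU1, 18.9% in CTSG and 14.5% in ELANE. At 1 or more edited reads the share with C before and G after was 19.6% of 56 positions for DDX41-ADARcd and 26.4% of 91 for ADARcd alone, against 11.4% and 11.8% over all. None of the 6 lay within 5 bases of a splice junction. The 6 positions share 1 library and 4 genes, so they are not independent.

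Against ADARcd alone, 12 of the 63 fusion positions were marked as intron by the authors, in SRGN, PRTN3 and AZU1. Each of the 12 had 1 edited read of 2 to 76, and their median level of 15.5% goes with a median depth of 6.50 fusion reads. In the exons the median level of 51 positions was 0.222% (0.180 to 0.277). SRGN and PRTN3, with 5 such positions each, had 4 to 8 and 2 to 7 fusion reads there. Of the AZU1 pair, chr19:829798 had 10 fusion reads and chr19:831451 had 76, and GENCODE 29 places the deeper of them in a 3′ UTR.

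**Figure D2:**
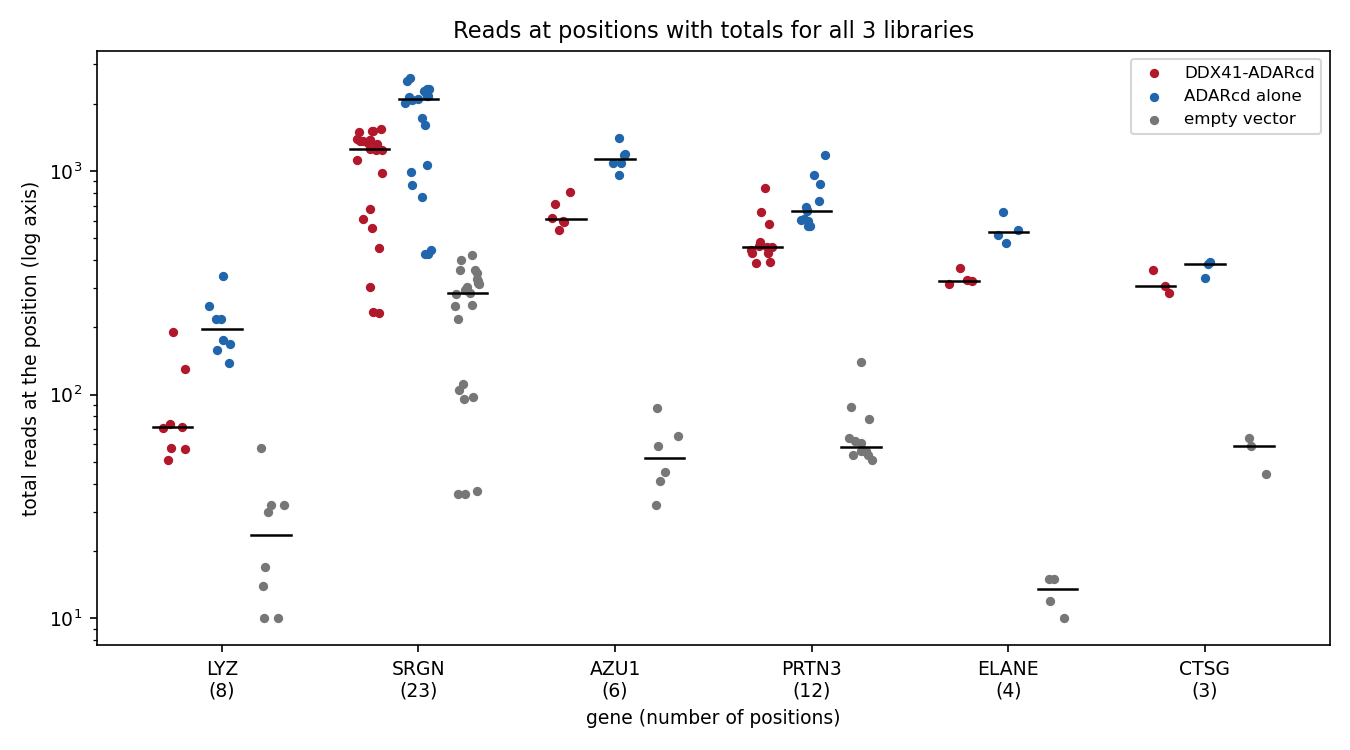
Total reads (log axis) in each library at the exon positions with totals for all 3 libraries, by gene, with the number of positions in parentheses and the median as a black bar; libraries run from DDX41-ADARcd (red) through ADARcd alone (blue) to the empty vector (grey). The empty vector is lowest in every gene, with medians of 13.5 reads in ELANE and 284 in SRGN.

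Read depth differed between the libraries. At the 3516 positions with totals in all 3 libraries the medians were 220 reads in DDX41-ADARcd, 321 in ADARcd alone and 30.0 in the empty vector; library totals are not used here, so ratios below are read against those of other genes. In these bulk samples fewer cells with a transcript and less RNA per cell cannot be told apart. As a check of the labels, DDX41 had the highest read ratio of DDX41-ADARcd over ADARcd alone of the 476 genes with 5 or more exon positions, at 6.93. ADARB1, a human ADAR gene, had the lowest, at 0.217. Both libraries carry the ADAR catalytic domain, so the ADARB1 ratio is not part of that check. Over the 476 genes the median ratio was 0.665, with a 5th to 95th percentile range of 0.510 to 0.867.

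LYZ stood low in DDX41-ADARcd. At its 8 positions with 3 totals, DDX41-ADARcd had a median of 71.5 reads (51 to 190), ADARcd alone 196 (138 to 338) and the empty vector 23.5 (10 to 58). The median ratio over the 9 positions listed against ADARcd alone was 0.341 for DDX41-ADARcd over ADARcd alone, the 5th lowest of 476 genes. Against the empty vector LYZ was at 3.87 in DDX41-ADARcd over 8 listed positions, the 12th lowest of 213 genes (median 6.17). In ADARcd alone it was at 8.05 over 12 listed positions, rank 251 of 394 from the highest (median 9.09). No replicate shows how far such ratios vary between cultures.

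Part of the low LYZ ratio lay in this shared run of the 3′ UTR. At the 6 positions in the shared run the ratio of DDX41-ADARcd over ADARcd alone was 0.281 to 0.343, with a median of 0.329, and at the 3 positions outside it was 0.514 to 0.562, with a median of 0.522. The ranges do not overlap. By the 3 unique positions alone LYZ would be the 30th lowest of 476 genes. Over the empty vector the LYZ medians were 3.41 inside the run (5 positions, 2.25 to 5.70) and 4.33 outside (3 positions, 3.28 to 5.07) for DDX41-ADARcd. For ADARcd alone they were 11.2 inside (8 positions, 7.75 to 19.5) and 7.89 outside (4 positions, 6.48 to 9.76). The ranges overlap in both of these comparisons. Over all listed 3′ UTR positions, those whose letters occur in more than 5 other genes had a median ratio of DDX41-ADARcd over ADARcd alone of 0.623 (471 positions), and the rest 0.632 (2483 positions). The part of shared letters in the LYZ ratios was not tested. On the log2 scale the LYZ 3′ UTR ratio minus its coding ratio was -0.71, the 4th lowest of 152 genes (median -0.09, 5th to 95th percentile -0.58 to 0.48), against 0.02 in SRGN and 0.11 in AZU1. The LYZ value rests on 7 positions in the 3′ UTR, 6 of them in the shared run, and 2 coding positions. The 3′ UTR position outside the run, chr12:69353335, was at 0.514, and the coding positions were at 0.522 and 0.562.

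**Figure D3:**
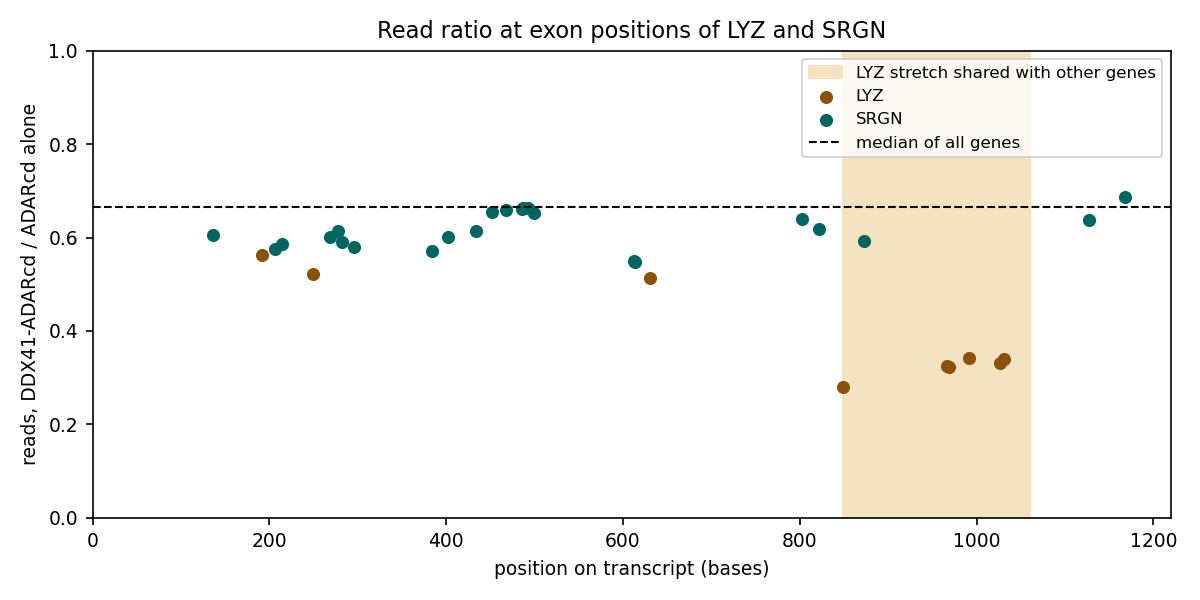
Reads in DDX41-ADARcd over reads in ADARcd alone at each exon position of LYZ (brown) and SRGN (green) listed for DDX41-ADARcd against ADARcd alone, by position on the transcript; the shaded band is the LYZ run with letters shared with other genes, and the dashed line is the median of all genes, 0.665. The LYZ positions in the band lie at 0.281 to 0.343 and those outside it at 0.514 to 0.562, while SRGN lies at 0.547 to 0.686 along its length.

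ELANE and AZU1 stood high against the empty vector. At its 4 positions with 3 totals ELANE had 313 to 369 reads in DDX41-ADARcd, 475 to 659 in ADARcd alone and 10 to 15 in the empty vector. Over the positions of each list, its median ratio to the empty vector was 25.7 for DDX41-ADARcd (4 positions) and 38.4 for ADARcd alone (7 positions). The latter was the second highest of 394 genes for the ADARcd library. At the 4 ELANE positions with 3 totals the ratio of ADARcd alone was 43.6. AZU1 had 543 to 808 reads in DDX41-ADARcd, 962 to 1409 in ADARcd alone and 32 to 87 in the empty vector at 6 positions. Its ratio was 11.5 for DDX41-ADARcd at these 6, 17th of 213 genes. For ADARcd alone it was 26.1 over 16 listed positions, 8th of 394, and 20.6 at the 6. At all 56 positions of the 6 genes with 3 totals the reads of either transgene library lay above those of the empty vector. The lowest ratios there were 2.25 for DDX41-ADARcd and 5.46 for ADARcd alone. Over all 3516 positions the median ratios were 5.82 and 8.73, so more reads than in the empty vector are not particular to ELANE and AZU1. A position needs 10 reads in the empty vector to be listed, so the ELANE and AZU1 positions with fewer are outside these ratios.

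PRTN3, which lies between AZU1 and ELANE, stood closer to the median of all genes. Its ratio over the empty vector was 7.66 for DDX41-ADARcd, 63rd of 213, and 10.7 for ADARcd alone, 123rd of 394. CTSG had 6.12 over 3 positions for DDX41-ADARcd and 10.6 for ADARcd alone, 125th of 394. SRGN was below the medians, with 4.60 for DDX41-ADARcd and 7.68 for ADARcd alone. The serine protease genes and AZU1 thus spread from near the median of all genes to near its top, without a common ratio.

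Between the 2 transgene libraries the granule genes other than LYZ lay within the 5th to 95th percentile range. The ratio of DDX41-ADARcd over ADARcd alone was 0.853 in CTSG, 0.692 in PRTN3, 0.613 in SRGN, 0.597 in ELANE and 0.555 in AZU1, where CTSG had 3 and ELANE and AZU1 4 exon positions. CTSG was the highest, at 285 to 361 reads in DDX41-ADARcd and 334 to 392 in ADARcd alone. At each of the 56 positions with 3 totals DDX41-ADARcd had fewer reads than ADARcd alone, with ratios of 0.323 to 0.921. Over all 3516 positions with 3 totals the median ratio was 0.687 (0.323 to 2.11), so fewer reads in DDX41-ADARcd are not particular to these genes.

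**Figure D4:**
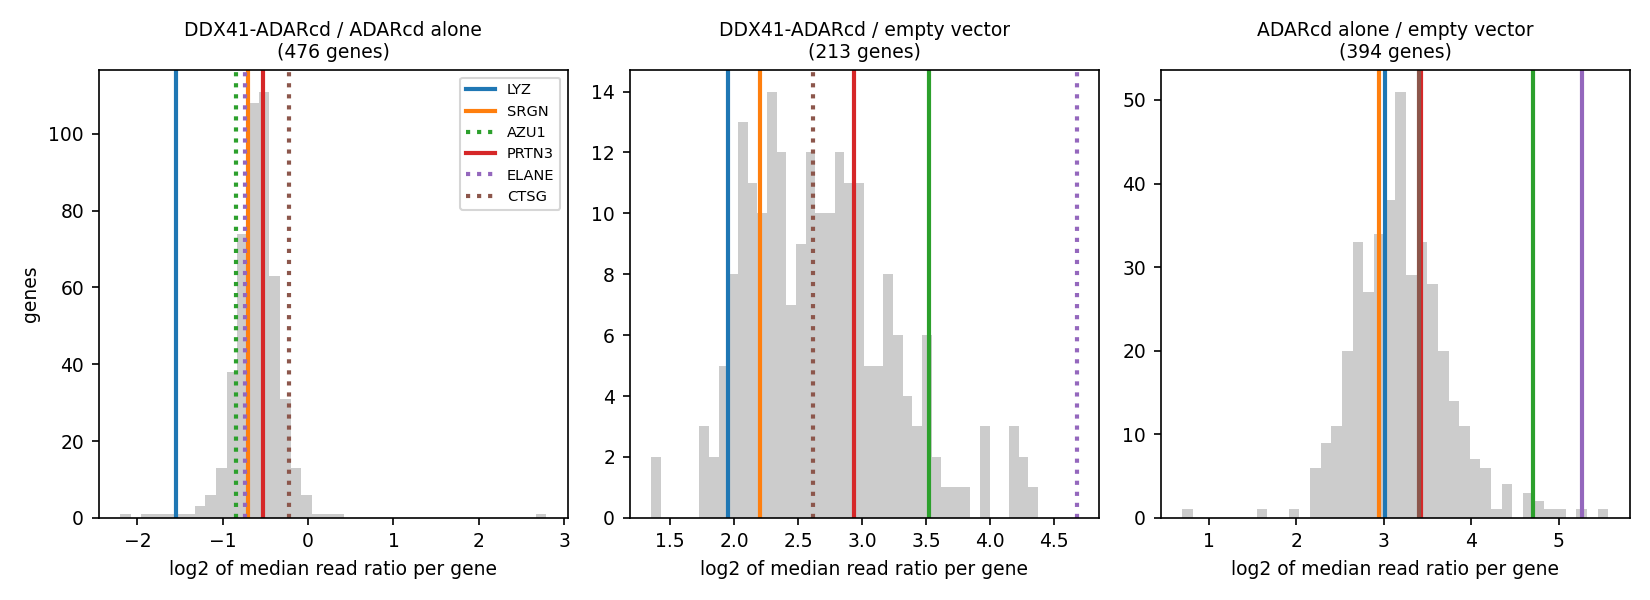
Histograms of the log2 median read ratio per gene for genes with 5 or more listed exon positions, for DDX41-ADARcd over ADARcd alone (left), DDX41-ADARcd over the empty vector (middle) and ADARcd alone over the empty vector (right); coloured lines mark the granule genes, dotted where a gene has fewer than 5 positions in that list. LYZ lies at the low end on the left, and ELANE and AZU1 lie at the high end on the right.

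Base composition and the ratio over the empty vector were weakly correlated across genes. AZU1, ELANE and PRTN3 transcripts have 67.5%, 66.8% and 66.1% G and C, CTSG has 57.2%, LYZ 41.5% and SRGN 38.1%. Across 381 genes Spearman's rho between the share of G and C and the ratio of ADARcd alone over the empty vector was 0.266, a description over genes that share both libraries. The 16 genes with 65% or more, AZU1, ELANE and PRTN3 among them, had a median ratio of 11, with a range of 6.52 to 38.4, against 8.83 in the rest. ELANE at 38.4 is itself the top of that range, AZU1 at 26.1 lies above the median and PRTN3 at 10.7 below it. As these genes are part of the 16, this does not compare them with other genes. The part of base composition in their ratios was not tested.

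The number of positions per A also differed among these genes. Per 100 A of the transcript, ADARcd alone against the empty vector gave 11.5 positions in AZU1, 10.3 in PRTN3, 7.36 in SRGN, 5.07 in CTSG, 4.22 in ELANE and 2.68 in LYZ, against a median of 1.72 over 381 genes. By read depth AZU1 was 36th, PRTN3 72nd, SRGN 10th, CTSG 135th, ELANE 91st and LYZ 231st of the 381. LYZ had both the lowest number per A and the lowest depth of the 6. In the order by number, SRGN, the deepest, came after AZU1 and PRTN3, and CTSG came before the deeper ELANE, while the part of depth in this order was not tested.

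The gene whose pair of ratios over the empty vector was nearest to that of SRGN, the gene with most positions, was ARHGDIB among 197 genes with 5 or more positions in both lists. The distance between the pairs of log2 ratios was 0.04 for ARHGDIB, 0.06 for MKI67 and 0.07 for CCT3. Their ratios were 4.54, 4.41 and 4.50 for DDX41-ADARcd and 7.49, 7.68 and 8.0 for ADARcd alone, against 4.60 and 7.68 for SRGN.

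A list of 25 further genes tied to myeloid granules holds the transcription factors GFI1 and CEBPE beside granule proteins. Against the empty vector, 4 of the 25 had 10 listed positions for DDX41-ADARcd and 4 had 14 for ADARcd alone. Against ADARcd alone, 6 had 21 positions for DDX41-ADARcd. GFI1 gave 2 of the 10, 2 of the 14 and 10 of the 21. None of these positions was called, against 0%, 0.203% and 0.282% over all tested positions in these comparisons, and none had an unadjusted p under 0.05. All 26 calls behind the 0.282% were lower in DDX41-ADARcd, at positions listed for both transgene libraries against the empty vector. The further granule genes had 0 positions of that kind, and the share called higher in DDX41-ADARcd was 0% over all. They were CD63, a membrane protein of granules and lysosomes, GRN, the precursor of granulins, RNASE2, an eosinophil ribonuclease, the repressor GFI1, and, against ADARcd alone only, CTSC, the protease that activates the serine proteases of granules, and SERPINB1, which inhibits them. GFI1 at chr1:92475442 had 2 of 75 reads edited in DDX41-ADARcd (2.67%, 0.325 to 9.30), against 0 of 144 in ADARcd alone and 0 of 13 in the empty vector. Its interval overlaps those of the LYZ and CTSG positions above.

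Of 45 further lysosomal genes, 10 had 49 listed positions for DDX41-ADARcd and 11 had 130 for ADARcd alone against the empty vector, and 29 had 135 for DDX41-ADARcd against ADARcd alone. Again none was called, against the same shares of 0%, 0.203% and 0.282% over all. At the 9 positions of these genes listed for both transgene libraries against the empty vector, 0 were called, against 6.50% of such positions over all. At an unadjusted p under 0.05 there were 0 of 49, 1 of 130 and 2 of the 104 tested positions. The shares over all were 0.0854%, 0.546% and 0.856%, the last of which was 0.434% for upward differences in DDX41-ADARcd alone of the 2 directions. Whether the counts of these genes differ from those shares was not tested. PPT1, a thioesterase that removes fatty acids from proteins, had the most, with 27 positions for DDX41-ADARcd and 60 for ADARcd alone, followed by LYST, a regulator of lysosome size, with 8 and 42, and LAPTM5, a lysosomal membrane protein, with 4 and 7. Against ADARcd alone LYST led with 43 positions for DDX41-ADARcd, at a median of 8.0 fusion reads, followed by PPT1 with 22 and the proteases CTSS with 7 and CTSB with 6. The PPT1 position with most edited reads, chr1:40073250, had 27 of 1025 reads edited in ADARcd alone (2.63%, 1.74 to 3.81), against 0 of 144 in the empty vector (Fisher's exact p = 0.0667, adjusted p = 1). In MAN2B1, a lysosomal mannosidase, chr19:12663342 stood high in ADARcd alone, with 23 of 76 reads edited (30.3%, 20.2 to 41.9), against 0 of 12 in the empty vector (Fisher's exact p = 0.0313, adjusted p = 1). Its interval lies above those of all the positions of the 7 granule genes in ADARcd alone. The 2 positions against ADARcd alone were higher in DDX41-ADARcd. In GM2A, which carries lipids to a lysosomal enzyme, chr5:151268256 had 5 of 28 reads edited in DDX41-ADARcd (17.9%, 6.06 to 36.9), against 0 of 38 in ADARcd alone (Fisher's exact p = 0.0110, adjusted p = 0.560). In LYST, chr1:235766129 had 4 of 94 in DDX41-ADARcd (4.26%, 1.17 to 10.5), against 0 of 149 in ADARcd alone (Fisher's exact p = 0.0215, adjusted p = 0.560).

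The lists say little of the cell type. Of 21 monocyte and myeloid markers, 5 had listed positions for DDX41-ADARcd and 8 for ADARcd alone against the empty vector, among them LYZ, CEBPA, SPI1 and CD68, and MPO had none. Markers of T cells, B cells, erythroid cells, and eosinophils and basophils had 0 listed positions in all 3 lists, which says nothing of their expression, since a gene without a listed position has no value here.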

How the data were processed

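RNA of 3 THP-1 libraries was analysed from 3 A-to-G site lists. The deposited values are counts: per the file headers, raw read counts per base and in total at each position in 2 libraries. Per the submitters' processing notes, CASAVA 1.4, FastQC 0.11.7 and STAR 2.5 were used and the build is mm10; the coordinates, however, fall on human GRCh38 genes, and all exon positions of the 6 genes are A on GENCODE 29 transcripts. For the site caller, its filters and strand handling, the sources used here give nothing. Columns name no library, so a list's title decided: its first name is the edited library, its second the control. Totals were equal between lists at 402 of 402 shared positions for the empty vector and 3114 of 3114 for DDX41-ADARcd. Repeat entries of a position were joined: 62 for DDX41-ADARcd and 134 for ADARcd alone against the empty vector, and 184 for DDX41-ADARcd against ADARcd alone.

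The members and gene lists were chosen with earlier results of these data known. Positions named are those with 2 or more edited reads, and those with most edited reads, in each gene and list; 1 LYZ position is not reported here. The level is edited over total reads, with exact Clopper-Pearson 95% intervals; medians have order-statistic intervals. Sites with at least 10 reads in each library were tested (two-sided Fisher's exact test, SciPy 1.17.1, Benjamini-Hochberg over all sites). For DDX41-ADARcd against ADARcd alone, positions listed for both against the empty vector were added to the deposited list. The read ratio is the first library's total over its control's, as the median over a gene's exon positions. Bases, regions and coordinates come from GENCODE 29. The test was checked on simulated data. Alternatives were 20 reads per library, 2 or more edited reads, Bonferroni adjustment, read counts halved, entries not joined, summed reads and, added after seeing the data, exon positions only.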

Additional observations from a re-analysis of the deposited data

How the results depend on the processing

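No position of the 7 genes passed under any alternative tried, at 20 reads per library, with 2 or more edited reads, under Bonferroni adjustment, with read counts halved or with entries not joined. Over all positions the 13 that passed for ADARcd alone against the empty vector became 6 with read counts halved, an alternative that leaves fewer reads to test. With 2 or more edited reads, which leaves out the positions with the lowest levels by construction, the median level of the granule genes was 0.281% for DDX41-ADARcd and 0.448% for ADARcd alone against the empty vector, where all their positions gave 0.219% and 0.151%, so the order of the 2 libraries turned. With the same minimum, the median read ratio was 11.9 for ADARcd alone over the empty vector, where all positions gave 10.5, and 0.657 for DDX41-ADARcd over ADARcd alone, where all positions gave 0.601. Other medians moved by less than their intervals under the alternatives tried, exon positions only included, which was chosen after seeing the data. No paired analysis was possible because each group has 1 library, and no replicate could be left out. Depth in the empty vector, 13.5 reads at the median ELANE position and 284 at the median SRGN position, limits what could be detected. The LYZ values inside the run shared with other genes rest on reads whose origin was not tested.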
